A study of Mus musculus with 6 samples.

Results

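The genes described here are 39 markers of macrophages and monocytes, read by symbol from a table of 57010 genes in whole gastrocnemius muscle. They come from a list of named genes, drawn up with earlier results of these data known, and each symbol matched 1 gene identifier. The study sequenced the muscle RNA of 6 mice aged 3 months, 3 in each group. The mutants carried the strain name B6.A-Dysfprmd/GeneJ (called BLAJ) and were homozygous for Dysfprmd, a loss-of-function allele of dysferlin, whose protein takes part in resealing the muscle fibre membrane. The controls were wild-type C57BL/6 mice. No animal was treated, and the labels count each animal as an independent replicate. Controls 1, 2 and 3 and mutant 3 were males, and mutants 1 and 2 were females, so a difference between the groups partly follows sex. With no female control, a difference given below with sex as a covariate, or among males, sets mutant 3 alone against the controls.

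Tissue macrophages derive from blood monocytes or from cells seeded before birth, and they depend on signalling through the CSF1 receptor. In injured muscle, monocytes that carry Ly6C on their surface enter from the blood, clear damaged fibres and turn into macrophages with low Ly6C, while resident macrophages with scavenger and lectin receptors sit between the fibres. Fibre damage in dysferlin deficiency is known to be accompanied by macrophages that take up debris and lipid. Here 3 months is an age at which the labels give no measure of pathology. In whole muscle, fewer cells of a type and less RNA per cell cannot be told apart.

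Each library held between 35042245 and 43733641 read pairs assigned to genes, and levels are given as CPM, the usual library-size-scaled count, with edgeR's TMM factors. On this scale a count of 3 corresponded to 0.0679 CPM (control 2) to 0.0826 CPM (mutant 2). Dysf stood at 72.2, 99.8 and 145 CPM in controls 1, 2 and 3, against 15.8, 14.7 and 20.3 CPM in mutants 1, 2 and 3, a log2 difference of -2.64 (SE 0.28, edgeR adjusted p = 0.0249), which fits the genotype labels. H2-Ea-ps stood at 2.37 to 3.44 CPM in the controls, and over the 3 mutants it had 1 count. Ifi202b stood at 1.02 to 7.69 CPM in the controls and had no count in the mutants. Transcripts of these 2 genes, chosen after their values were seen, are known to be absent or low in C57BL/6 mice, so the controls go against their strain label there, and strain background and dysferlin loss cannot be told apart. Control 2 stood apart from the other libraries: Runx1 was at 56.0 CPM there and at 2.14 to 4.70 CPM elsewhere, and the summed level of 5 regenerating-fibre genes was 800 CPM there and 21.1 to 60.1 CPM elsewhere. Control 1 stood apart in other genes: it had the highest summed level of B cell genes (275 CPM, against 9.17 to 46.7 CPM in the other libraries) and of neutrophil genes, and the largest share of mitochondrially encoded counts (9.75%, against 4.28% to 6.96%).

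Of the 39 markers, 38 had enough counts to be tested, and none passed an adjusted p of 0.05 in edgeR's quasi-likelihood test, against 0.199% of all 15589 genes tested (31 genes, of which 29 had lower values in the mutants). The markers at an unadjusted p under 0.05 were 2, Ly6c2 with lower values and Fcgr2b with higher values in the mutants, against 6.94% of all genes. DESeq2 called 1 of the 38 markers that had an adjusted p, Ly6c2, against 1.08% of all genes, and limma-voom called none. By the sign of the log2 fold change 25 markers were higher and 13 lower in the mutants, where 49.8% of all genes were higher, and the median log2 fold change was 0.20 against 0.00 (-0.0016) over all genes. Among the markers only Fcgr2b had every mutant above every control (5.97% of all genes did), and only Ly6c2 had every mutant below every control (6.09% of all genes), so 2 of 38 did not overlap against 12.1% of all genes. The 39th marker, Marco, a scavenger receptor of some resident macrophages, had no count in 4 libraries and reached 0.0254 CPM in control 3 and 0.0528 CPM in mutant 1, all below the level of 3 counts.

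**Figure D1:**
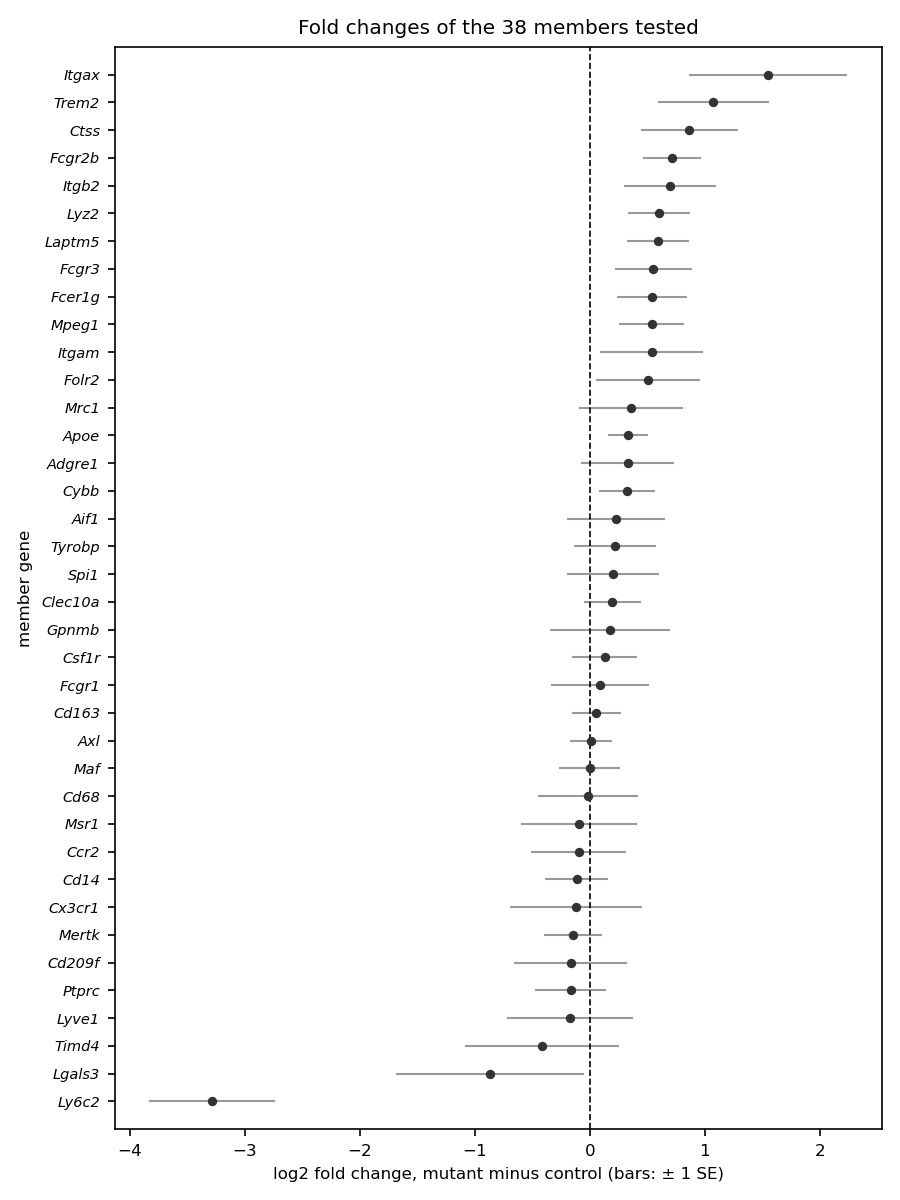
Log2 fold change of mutants against controls (horizontal axis) for the 38 markers tested, sorted by this value. Points are edgeR's estimate and bars are 1 standard error, with 3 animals a group. Ly6c2, at -3.29, lies far to the left of the other markers, which lie between -0.87 and 1.55.

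Ly6c2 (ENSMUSG00000022584) encodes one of the Ly6C surface proteins by which blood monocytes of the inflammatory kind are recognised. It stood at 1.52, 1.13 and 3.12 CPM in controls 1, 2 and 3, against 0.106, 0.275 and 0.203 CPM in mutants 1, 2 and 3. The groups did not overlap: all mutants were low and control 3 was the highest library. The counts behind these values were 61, 50 and 123 read pairs in the controls and 4, 10 and 8 in the mutants. The group means were 1.93 ± 1.06 CPM (SD, n = 3) and 0.195 ± 0.085 CPM (SD, n = 3), and the log2 difference was -3.29 (SE 0.54, edgeR adjusted p = 0.151). Whether the gene passed 0.05 turned on the tool and the filter: the adjusted p was 9.06e-06 with DESeq2, 0.00104 with edgeR when genes of low count were kept (where 0.259% of all genes were called), 0.266 with limma-voom, and the authors' deposited table lists a log2 fold change of -3.31 with an adjusted p of 8.7e-06, the only marker past 0.05 in a table where 1.19% of genes were. With sex as a covariate, which sets mutant 3 alone against the controls, the log2 difference was -3.22 in edgeR and -3.26 in DESeq2. Mutant 3, a male like the controls, had a level between those of the other mutants.

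The neighbouring paralog Ly6c1, which endothelial cells also express, did not share this difference. Ly6c1, chosen after its values were seen, stood at 105, 33.7 and 35.6 CPM in the controls, against 64.1, 47.2 and 47.7 CPM in the mutants, with overlapping groups and a log2 difference of -0.13 (SE 0.45, edgeR adjusted p = 0.976). The longest coding transcripts of the 2 genes were 97.6% identical over 822 aligned bases, and 73.2% of the 61-base windows of the Ly6c2 transcript occurred in no other gene. Read pairs of Ly6c2 were 1.45%, 3.36% and 8.78% of those of Ly6c1 in controls 1, 2 and 3 and 0.165%, 0.583% and 0.426% in mutants 1, 2 and 3. Read pairs that mapped to more than 1 place were counted to no gene (5.83% of pairs in control 2 to 9.78% in control 1). Pairs of sequence shared by the 2 genes were thus left out and not split between them. How many pairs each gene lost in this way was not tested, so the Ly6c2 counts are uncertain to that extent.

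The promoters of Ly6c2 and Ly6c1 are shown because these near-identical genes differed in their values, and that of Lyz2, a broad macrophage marker, is shown beside them. They are the 250 bases before the start of the most upstream RefSeq transcript (GRCm38.p6), read 5′ to 3′ on the gene's strand: chr15:75111972-75112221 on the minus strand for Ly6c2, chr15:75048838-75049087 on the minus strand for Ly6c1 and chr10:117282273-117282522 on the minus strand for Lyz2. Capitals mark a match to GAGGAAGT or to the shorter AGGAAGT or GGAAGT nested in it, on either strand, which hold the core bound by PU.1 and other ETS factors.
Ly6c2: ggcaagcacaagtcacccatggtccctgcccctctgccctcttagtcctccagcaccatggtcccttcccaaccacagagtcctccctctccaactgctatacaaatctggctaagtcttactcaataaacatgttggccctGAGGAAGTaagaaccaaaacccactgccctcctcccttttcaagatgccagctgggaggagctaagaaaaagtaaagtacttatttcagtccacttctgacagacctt
Ly6c1: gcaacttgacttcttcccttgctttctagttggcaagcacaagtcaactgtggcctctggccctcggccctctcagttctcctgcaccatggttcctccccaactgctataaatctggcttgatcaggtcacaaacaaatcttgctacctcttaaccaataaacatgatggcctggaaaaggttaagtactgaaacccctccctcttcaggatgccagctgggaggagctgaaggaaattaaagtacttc
Lyz2: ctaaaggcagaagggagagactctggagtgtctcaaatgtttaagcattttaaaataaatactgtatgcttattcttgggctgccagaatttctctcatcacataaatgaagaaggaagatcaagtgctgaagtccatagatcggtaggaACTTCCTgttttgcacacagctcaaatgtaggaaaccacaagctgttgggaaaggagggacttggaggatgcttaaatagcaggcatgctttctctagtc

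The Ly6c2 window holds GAGGAAGT, the shown Ly6c1 window holds none of these motifs, and the Lyz2 window holds AGGAAGT on the opposite strand. The shown Ly6c2 and Ly6c1 windows were 75.9% identical over 216 aligned bases, and a second Ly6c1 window, for a start further downstream, did hold GAGGAAGT. RefSeq windows were matched for 29 of the 39 markers, 35 windows in all. GAGGAAGT was in 5.71% of them and in 2.44% of all 32851 mouse windows. The marker windows that held it were 2 overlapping windows of Ly6c2, so 1 marker of the 29 was counted more than once. AGGAAGT was in 22.9% of the marker windows (6 markers: Fcgr1, Folr2, Ly6c2, Lyz2, Mrc1 and Ptprc) against 7.69% of all windows, and GGAAGT was in 34.3% (10 markers) against 19.7%. These matches are letters in a window, searched with the markers' promoters in view, and no binding was measured.

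The other monocyte markers did not share the Ly6c2 values. Ccr2, the receptor by which monocytes follow CCL2 out of the bone marrow and into tissue, stood at 3.47, 6.18 and 9.83 CPM in the controls, against 8.64, 5.15 and 4.40 CPM in the mutants (log2 difference -0.10, SE 0.42, edgeR adjusted p = 0.980). Control 1 was the lowest library and control 3 the highest, with the mutants between them. The Ccr2 difference was -0.56 with sex as a covariate and 0.32 without control 3. Cx3cr1, the fractalkine receptor of patrolling monocytes, had means of 1.03 and 0.948 CPM in controls and mutants, and Cd14, a co-receptor for lipopolysaccharide, had 1.81 and 1.67 CPM. All 4 monocyte markers had a log2 fold change below 0, and the median was -0.12.

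Markers of neutrophils, which can also carry Ly6C, were lower in the mutants as well, though none passed the test. Of 11 neutrophil genes 7 had enough counts to be tested, all 7 were lower in the mutants with a median log2 fold change of -1.62, and 5 of them had every mutant below every control, against 6.09% of all genes. Their summed level was 31.6, 16.3 and 11.1 CPM in controls 1, 2 and 3 and 11.4, 4.05 and 4.81 CPM in mutants 1, 2 and 3, and edgeR called none (smallest adjusted p 0.534, 5 of the 7 at an unadjusted p under 0.05, against 6.94% of all genes), nor did DESeq2 or limma-voom. Ly6g, the defining neutrophil surface marker, was at 0.0453 to 0.25 CPM in the controls and had no count in any mutant. Its lowest control value lay below the level of 3 counts. Control 1 had the highest neutrophil sum while control 3 had the highest Ly6c2, and the part of these cells in the Ly6c2 values was not tested.

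**Figure D2:**
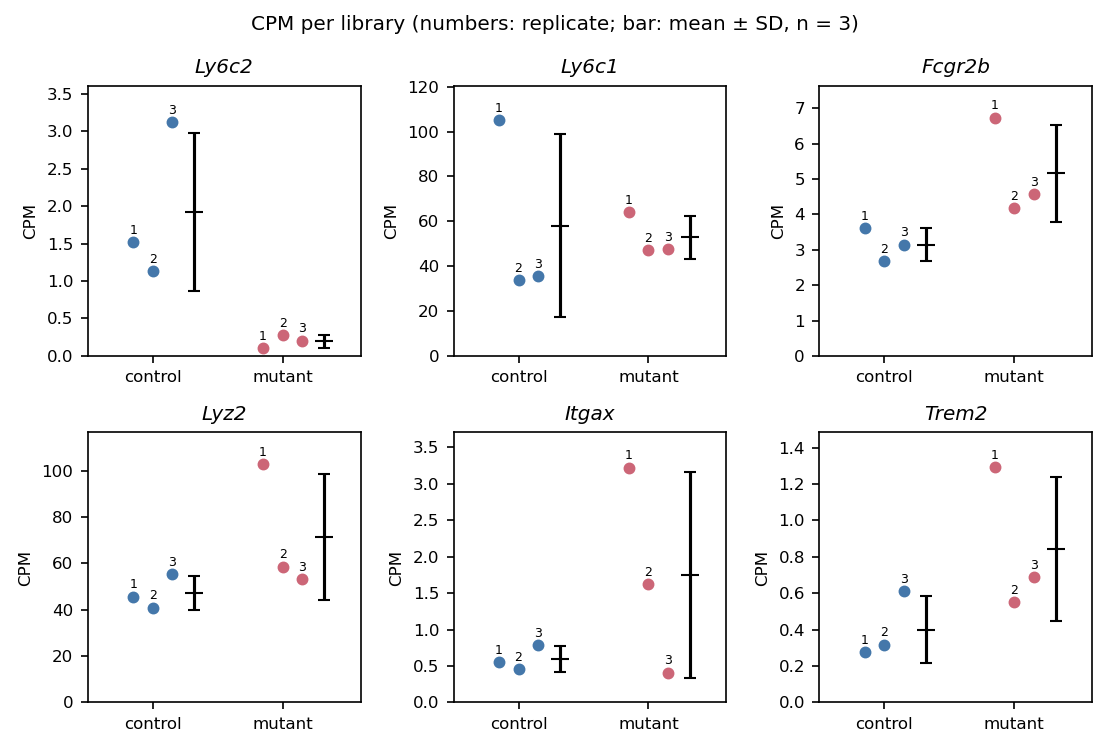
CPM in each library (points) with the group mean and SD (bars), 3 controls and 3 mutants, for Ly6c2, Ly6c1, Fcgr2b, Lyz2, Itgax and Trem2, each on its own axis. The mutants of Ly6c2 lie at 0.106 to 0.275 CPM, below all controls, and for Lyz2, Itgax and Trem2 mutant 1 is the highest library.

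The Fc gamma receptors bind the constant part of IgG on opsonised material. Fcgr2b (ENSMUSG00000026656), the inhibitory member, stood at 3.62, 2.67 and 3.15 CPM in the controls, against 6.74, 4.19 and 4.58 CPM in the mutants, and the groups did not overlap. The log2 difference was 0.72 (SE 0.25, unadjusted p = 0.0251, edgeR adjusted p = 0.655). Fcgr3, an activating receptor, stood at 3.22, 2.67 and 5.21 CPM in the controls, against 6.81, 3.66 and 5.77 CPM in the mutants (log2 difference 0.55, SE 0.34, edgeR adjusted p = 0.819), with control 3 above mutant 2, and it was 0.35 without mutant 1, 0.36 without control 2 and 0.87 without control 3. Fcgr1, the high-affinity activating receptor, had means of 1.49 and 1.59 CPM. Fcgr2b and Fcgr3 share stretches of sequence: 92.1% and 89.7% of the windows of their coding transcripts occurred in no other gene.

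The genes that mark leukocytes or myeloid cells as a whole had 7 of 8 log2 fold changes above 0, with a median of 0.54. Itgax, the integrin subunit CD11c of dendritic cells and activated macrophages, stood at 0.549, 0.453 and 0.788 CPM in the controls, against 3.22, 1.62 and 0.407 CPM in the mutants. Mutants 1 and 2, the females, were above all controls and mutant 3 was the lowest library. The log2 difference was 1.55 (SE 0.69, edgeR adjusted p = 0.738), and it was 0.77 without mutant 1. It was -0.55 with sex as a covariate and -0.54 among males, which is the same comparison of mutant 3 alone with the controls. Laptm5, a lysosomal membrane protein of blood cells, stood at 5.74, 5.52 and 8.10 CPM in the controls, against 13.3, 7.57 and 8.26 CPM in the mutants (log2 difference 0.59, SE 0.27, edgeR adjusted p = 0.749), with control 3 between mutants 2 and 3. The Laptm5 difference was 0.30 without mutant 1 and 0.36 with sex as a covariate. The integrin Itgb2, the ITAM adaptors Tyrobp and Fcer1g, and Spi1, which encodes PU.1, had log2 differences of 0.69, 0.22, 0.54 and 0.20, and Ptprc, which encodes CD45 of all leukocytes, had -0.17. Itgam, the CD11b subunit, had 0.54, but 27.9% of its coding transcript's windows occurred in no other annotated gene, since an overlapping gene on its strand shares most of its exons in the annotation used here, and its count may be partial.

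Of the macrophage identity genes, 7 of 9 were above 0 and the median log2 fold change was 0.32. Lyz2, which encodes lysozyme, stood at 45.6, 40.8 and 55.3 CPM in the controls, against 103, 58.7 and 53.2 CPM in the mutants (log2 difference 0.60, SE 0.27, edgeR adjusted p = 0.744). Ctss, the lysosomal protease cathepsin S, stood at 11.7, 5.75 and 10.9 CPM in the controls, against 27.8, 12.9 and 10.9 CPM in the mutants (log2 difference 0.86, SE 0.42, edgeR adjusted p = 0.776). In both genes mutant 1 was the high library and mutant 3 lay within the controls. Without mutant 1 the log2 difference was 0.24 for Lyz2 and 0.34 for Ctss, and with sex as a covariate it was 0.17 and 0.21. Adgre1, which encodes F4/80, had means of 4.84 and 6.07 CPM in controls and mutants, and Csf1r, the CSF1 receptor, had 16.1 and 17.6 CPM. Cd68, a lysosomal glycoprotein, had 5.42 and 5.35 CPM, and Mpeg1, which encodes a pore-forming protein of phagocytes, had 8.84 and 12.8 CPM. Aif1, which encodes IBA1, had 0.557 and 0.651 CPM, and Cybb, the catalytic subunit of the phagocyte NADPH oxidase, had 4.33 and 5.40 CPM. Maf, a transcription factor of resident macrophages that muscle and other cells also express, stood at 345, 210 and 320 CPM in the controls, against 276, 380 and 217 CPM in the mutants, with a log2 difference of -0.0028 (SE 0.27, edgeR adjusted p = 0.999) that became -0.42 with sex as a covariate.

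The receptors of resident macrophages were split, 4 above 0 and 3 below, with a median log2 fold change of 0.06. Mrc1, the mannose receptor CD206, stood at 12.8, 20.3 and 33.2 CPM in the controls, against 22.3, 17.6 and 45.1 CPM in the mutants (log2 difference 0.36, SE 0.45, edgeR adjusted p = 0.930). Within each group the third replicate was the highest, as was the summed level of 6 fibro-adipogenic genes, at 3407 CPM in control 3 and 4245 CPM in mutant 3 against 679 to 1069 CPM in the other libraries, and the part of those cells in Mrc1 was not tested. The Mrc1 difference was 1.03 with sex as a covariate, 0.77 without control 3, 0.08 without control 1 and -0.15 without mutant 3. Folr2, the folate receptor beta, stood at 0.649, 0.453 and 1.12 CPM in the controls, against 0.951, 0.689 and 1.5 CPM in the mutants (log2 difference 0.50, SE 0.45, edgeR adjusted p = 0.891), and its difference was 1.02 with sex as a covariate, 0.92 without control 3, 0.25 without control 2 and 0.15 without mutant 3. The hyaluronan receptor Lyve1, the phosphatidylserine receptor Timd4 and the lectin Cd209f had log2 differences of -0.17, -0.42 and -0.17, and the haemoglobin scavenger receptor Cd163 and the lectin Clec10a had 0.06 and 0.20. Lyve1, which lymphatic vessels also express, was lowest in control 2 and mutant 2, at 4.39 and 3.99 CPM, and 10.8 to 14.4 CPM in the other libraries.

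Trem2, a lipid-sensing receptor that signals through Tyrobp, stood at 0.274, 0.317 and 0.610 CPM in the controls, against 1.29, 0.551 and 0.687 CPM in the mutants (log2 difference 1.07, SE 0.48, edgeR adjusted p = 0.741). Control 3 lay above mutant 2, and the other mutants lay above all controls. The Trem2 difference was 0.63 without mutant 1. Apoe, the lipid carrier, stood at 98.8, 135 and 89.7 CPM in the controls, against 135, 134 and 137 CPM in the mutants, so control 2 was at the level of the mutants (log2 difference 0.33, SE 0.17, edgeR adjusted p = 0.786), and the difference was 0.52 without control 2 and 0.21 without control 3. Lgals3, the lectin galectin-3, was at 52.0 CPM in control 2 and at 7.16 to 19.0 CPM in the other libraries, and its log2 difference was -0.87 (SE 0.82, edgeR adjusted p = 0.897). Gpnmb, a glycoprotein of lipid-laden macrophages, had means of 6.33 and 7.16 CPM, with control 2 and mutant 1 the highest. The receptors that clear dying cells differed little in mean: Axl stood at 66.3, 55.1 and 65.1 CPM in the controls, against 63.7, 49.0 and 75.1 CPM in the mutants (log2 difference 0.01, SE 0.18, edgeR adjusted p = 0.996). Mertk stood at 6.04, 4.84 and 4.04 CPM in the controls, against 3.57, 4.24 and 5.67 CPM in the mutants (log2 difference -0.15, SE 0.25, edgeR adjusted p = 0.954), and the scavenger receptor Msr1 had means of 2.03 and 1.90 CPM.

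The markers also varied from library to library within each group. Mutant 1 had the highest value of the 6 libraries for 16 of the 38 markers (42.1%, against 12.5% of all genes tested), and control 2 had the lowest for 17 (44.7%, against 20.6%). Control 3 was the highest library for 10 markers (26.3%, against 15.6% of all genes tested). The median deviation of the markers from each gene's mean over the libraries, in log2(CPM + 0.5), was -0.22, -0.40 and 0.19 in controls 1, 2 and 3 and 0.36, -0.08 and -0.04 in mutants 1, 2 and 3, while over all genes it stayed between -0.014 and 0.011. In 7 markers mutant 1 exceeded 1.5 times the highest other library, which 0.757% of all genes did. The median log2 fold change of the markers was 0.02 without mutant 1, when 19 of 38 were above 0, and 0.46 without control 3, when 33 of 38 were.

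**Figure D3:**
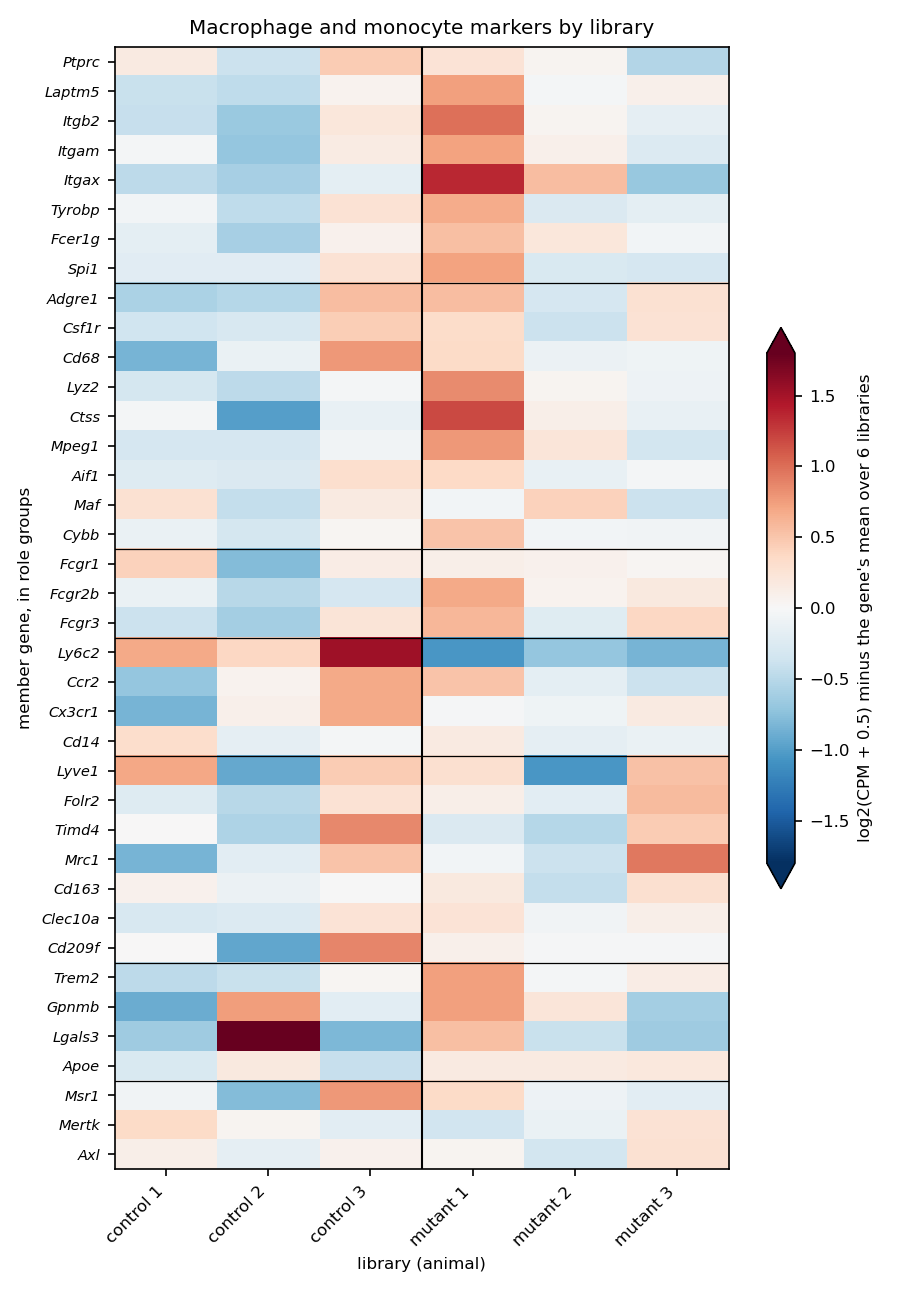
Deviation of log2(CPM + 0.5) from each gene's mean over the 6 libraries (colour) for the 38 markers tested (rows, grouped by role) in 3 controls and 3 mutants (columns). Mutant 1 is above the mean in most rows (median 0.36) and control 2 is below it in most (median -0.40), with Lgals3 and Gpnmb far above it.

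Per kilobase of exon, the mean level over all libraries was highest for Apoe (56.9 CPM per kb), Lyz2 (45.1 CPM per kb) and Maf (35.3 CPM per kb), followed by Axl (12.4 CPM per kb), Ctss (9.80 CPM per kb) and Lgals3 (9.34 CPM per kb, or 5.62 without control 2). The genes best known as specific to macrophages were lower on this scale: Cd68 had 4.28, Mrc1 3.96, Csf1r 2.92 and Adgre1 1.68 CPM per kb. Trem2 had 0.126 CPM per kb of all its annotated exons and 0.572 CPM per kb of its longest coding transcript, so its place in this order depends on the length taken. Other cells of muscle also express Apoe, Maf and Axl.

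Some levels depended on how overlapping genes were counted. The deposited matrix was counted without regard to strand, and for 34 of the 38 markers the strand-matched counts in the per-library files were within 10% of it in every library. Folr2 was an exception: it had 26, 20 and 44 read pairs in the controls and 36, 25 and 59 in the mutants without strand, and 130, 94 and 213 and 179, 133 and 273 with it. An antisense gene, Gm10602, overlaps its exons in the annotation used here. On strand-matched counts Folr2 stood at 3.37 ± 1.56 CPM (SD, n = 3) in the controls and 4.79 ± 1.57 CPM (SD, n = 3) in the mutants, and the log2 difference was 0.51 (SE 0.39, edgeR adjusted p = 0.862). For Cd163, between 5.02% (mutant 3) and 27.2% (control 2) of stranded read pairs lay on the opposite strand, against 6.60% to 7.20% over all genes. Strand-matched Maf counts were 113% to 115% of those without strand, and the strand-matched log2 difference was 0.0053. Cx3cr1 was the fourth exception, with a strand-matched log2 difference of -0.19.

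**Figure D4:**
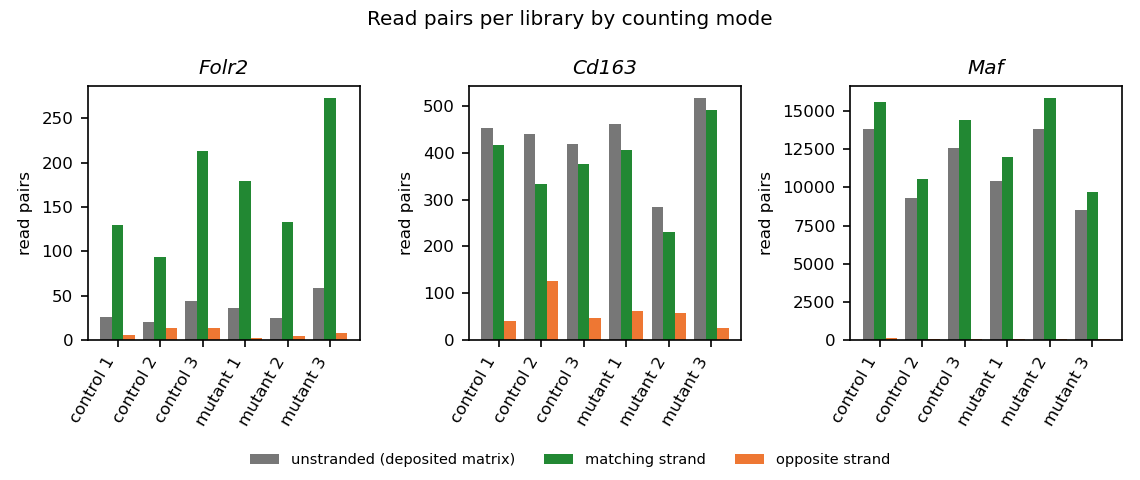
Read pairs per library for Folr2, Cd163 and Maf in 3 controls and 3 mutants, counted without strand, on the matching strand and on the opposite strand. Folr2 has 20 to 59 read pairs without strand and 94 to 273 on the matching strand, and Cd163 has 26 to 125 on the opposite strand.

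The genes that work with these markers were counted the same way. Of 80 partner genes in 7 lists, 72 were tested and edgeR called none, against 0.199% of all genes. By log2 fold change 50 were above 0 and 22 below, where 49.8% of all genes were above, and the median was 0.21. At an unadjusted p under 0.05 there were 2 higher (Grn and Spp1) and 2 lower (Cbr2 and Runx1), against 6.94% of all genes. DESeq2 called 1, Cbr2, against 1.08% of all genes, and limma-voom called none. Among the ligands of the receptors 6 of 8 tested were above 0; Il34, the second ligand of the CSF1 receptor, had means of 4.15 and 5.34 CPM in controls and mutants, and Pros1, which bridges dying cells to Mertk and Axl, had 14.9 and 17.4 CPM. Of 10 genes in the ITAM signalling list, which holds activating and restraining members, 8 were above 0. Lyn had 6.42 and 8.14 CPM and Plcg2 had 2.18 and 2.85 CPM. Of 5 NADPH oxidase subunits 4 were above 0, with Cyba at 5.89 and 8.02 CPM, and Ncf4 was the exception at 1.28 and 0.790 CPM. Of 7 myeloid transcription factors tested, 3 were above 0; Cebpb had 19.9 and 27.5 CPM, and the log2 difference of Runx1, -2.77 with all libraries, was -0.33 without control 2.

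Of 9 lysosomal genes of phagocytes 8 were above 0. Grn, which encodes progranulin, stood at 24.8, 23.7 and 32.1 CPM in the controls, against 41.2, 30.7 and 45 CPM in the mutants (log2 difference 0.54, SE 0.19, edgeR adjusted p = 0.655), and Lamp2 had means of 123 and 104 CPM. Of 8 activation genes tested 3 were above 0, among them Spp1, the cytokine osteopontin, at 2.89, 3.12 and 0.711 CPM in the controls, against 7.24, 4.87 and 5.52 CPM in the mutants (log2 difference 1.39, SE 0.51, edgeR adjusted p = 0.667). Of the 72 partner genes tested 6 had groups that did not overlap (8.33%, against 12.1% of all genes): Spp1, Nos2, Ctsb, Selenop and C5ar1 with the mutants above and Cbr2 with the mutants below. Nos2 had means of 2.35 and 3.66 CPM. Of 25 further macrophage genes tested 18 were above 0, with Selenop at 112 and 142 CPM. Cbr2, a carbonyl reductase of resident macrophages, went the other way at 24.0, 46.5 and 43.1 CPM in the controls, against 14.9, 11.1 and 11 CPM in the mutants, without overlap (log2 difference -1.62, SE 0.27, edgeR adjusted p = 0.160, DESeq2 adjusted p = 2.26e-05). Without control 1 the Cbr2 log2 difference was -1.87 (edgeR adjusted p = 0.0204).

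Among markers of other cells, which whole muscle also holds, summed levels in mutants and controls overlapped for T and NK cells (1.53 to 2.48 against 2.25 to 2.38 CPM), B cells (17.7 to 23.1 against 9.17 to 275 CPM, the latter in control 1 alone) and mast cells (8.90 to 17.6 against 6.52 to 13 CPM). Dendritic cell genes summed to 7.07 to 9.69 CPM in the mutants and 9.63 to 11.4 CPM in the controls. All 8 endothelial genes were above 0 by log2 fold change, with sums of 292 to 409 CPM in the mutants and 268 to 284 CPM in the controls. All 5 adipocyte genes were above 0 too, with a median log2 fold change of 0.88, but sums overlapped (192 to 299 against 143 to 203 CPM in the controls). So were all 5 red blood cell genes, with a median of 0.38 and overlapping sums (1363 to 2024 against 770 to 2062 CPM, the highest in control 2). Of 4 satellite cell genes 3 were below 0, with a median of -0.51. Satellite sums overlapped at 19.6 to 27.3 against 26.8 to 62.5 CPM, the highest again in control 2. All 4 proliferation genes tested were above 0, with a median of 1.94. Proliferation genes summed to 24.4 CPM in mutant 3 and 0.848 to 5.59 CPM in the other libraries. In all lists of other cells edgeR called no gene of 78 tested (smallest adjusted p 0.423), against 0.199% of all genes. At an unadjusted p under 0.05 there were 9, of which 5 were the neutrophil genes given above, against 6.94% of all genes. DESeq2 called 1, the haemoglobin gene Hba-a2, against 1.08% of all genes, and limma-voom called none.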

How the data were processed

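RNA of frozen gastrocnemius (800 ng, RIN at least 7.0) was made into directional poly(A) libraries read as 61-base pairs, per the labels' protocols. Tools listed in the submitters' processing notes were STAR 2.7.11b, DESeq2 1.50.2, FastQC 0.12.1, R 4.5.2 and MultiQC 1.28, with the build GRCm39. The sources used here do not give an annotation release. The authors deposited raw counts of read pairs per gene, and a table of their comparison with log2 fold changes, mean normalised signal, test score and p-values. The deposited matrix equals the unstranded column of the per-library files for all 57010 genes.

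The raw counts were tested with edgeR 4.0.16 (TMM, filterByExpr with a minimum count of 10, robust quasi-likelihood F-test, all 6 libraries, no covariate), and p-values were Benjamini-Hochberg adjusted over all 15589 genes tested. SE is the absolute log2 fold change over the square root of F. DESeq2 1.42.0, limma 3.58.1 (voom) and R 4.3.3 gave alternatives. The code was tested on simulated data. Members and gene lists were chosen with earlier results of these data known. Per-library values were given for the 8 markers with the smallest p, for the marker with the highest mean and the smallest p in each role list, and partner genes were the 2 with the smallest p in each list. Symbols came from a gene name table (52029 identifiers matched). Exon lengths, overlaps and windows came from GENCODE M21 (GRCm38). Floors, the CPM levels that a small fixed count corresponds to, cover counting error only. The SEs come from the quasi-likelihood fit over the libraries, so they also include variation between animals. Same-numbered libraries had correlations of 0.17, -0.06 and 0.18, so numbers were not taken as pairs.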

Additional observations from a re-analysis of the deposited data

How the results depend on the processing

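Under 19 alternatives to the edgeR fit, the count of called markers stayed at 0 except 1 with DESeq2 and 1 without a filter on low counts (both Ly6c2), and it was 0 to 0 with each library left out. Called partner genes went from 0 to 1 with DESeq2, with DESeq2 and sex, and without a filter, and were 0 to 1 with each library left out. Called genes in all went from 31 to 201 with DESeq2, 87 with DESeq2 and sex (an alternative chosen after seeing the data), 79 without a filter, 11 with the replicate block, 0 with sex as a covariate, 0 among males, and 6 to 49 with each library left out (7 without mutant 1, 6 without mutant 2, 49 without control 2). The markers' median log2 fold change was 0.02 to 0.46 with each library left out, 0.21 with the replicate block and 0.09 with sex. The fits with sex (edgeR or DESeq2) and among males all set mutant 3 alone against the controls. They are therefore not separate checks, and their calls rest on 1 mutant. Markers without overlap numbered 3 to 14 with each library left out, the 14 being without control 3. Leaving out a library cannot lower this count, and the share over all genes was not taken for these sets. Dysf lost its call without mutant 1, 2 or 3 (edgeR adjusted p = 0.228, 0.178, 0.0637), and its log2 change was -2.86 to -2.35 with each library left out. For mutant 3 alone against the controls, the Dysf log2 change was -2.38 with sex and -2.38 among males, also without a call. Of 547 values of 29 named genes, 521 kept their direction. The reversals were Itgax (-0.57 with DESeq2 and sex, -0.54 among males, -0.55 with sex), Mertk (0.17, 0.19, 0.19) and Plcg2 (-0.026, -0.0076, -0.0089) in the same order, Maf (0.045 by library total, 0.0053 strand-matched, 0.028 by upper quartile), and Axl (-0.0075 with limma-voom, -0.0067 with the replicate block). With each library left out, Maf was -0.24 to 0.17, Ccr2 -0.44 to 0.32, Mrc1 -0.15 to 0.77, Axl -0.14 to 0.16 and Mertk -0.35 to 0.0087. With sex as a covariate, Maf was -0.42, Ccr2 -0.56, Mrc1 1.03 and Folr2 1.02, outside these ranges or that of Folr2 (0.15 to 0.92). The causes were not tested. The numbers 1 to 3 are not known to pair animals. With counts this low for Ly6c2 and Trem2 and 3 animals a group, small differences were not detectable; the smallest exact permutation p is 0.1.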
